A study of Mus musculus with 4 samples.

Results

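The genes described here are 5 ligands and 3 receptors of the fibroblast growth factor (FGF) family, Fgf1, Fgf2, Fgf7, Fgf10, Fgf18, Fgfr1, Fgfr2 and Fgfr3. They were chosen by gene symbol, and each symbol matched 1 of the 31054 genes in the count matrices. The matrices hold single cells of the gonadal fat pad, a white adipose depot, of male mice aged 18 months that carried the alleles p16-CreERT2 and R26-LSL-tdTomato, and every group shares this genotype, this age and tamoxifen, which makes cells with an active p16 (Cdkn2a) locus switch on the red protein tdTomato (Tom+). Cells of the stromal vascular fraction, which is the tissue after enzyme digestion without its floating adipocytes, were stained for CD45 (leukocytes) and CD31 (endothelium) and sorted by CD45 and by tdTomato into 4 libraries, here always listed as CD45- Tom+, its partner CD45- Tom-, then CD45+ Tom+ and its partner CD45+ Tom-. Tom+ therefore reports a p16 locus that was active when tamoxifen was given, in cells that recombined, and not the p16 level at harvest.

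Each group is 1 library, and the number of pooled animals was not given in the sources used here, so no difference between libraries below has a replicate check and none was tested. The libraries held 64083756 to 139397501 unique molecular identifiers (UMIs, counted RNA molecules). After filters on gene number, mitochondrial UMIs and doublets, 3886, 3674, 1927 and 4391 cells remained in the order of the labels above, with a median depth of 18331 to 19516 UMIs per cell. Of these 13878 cells, 80 had the barcode of a cell kept in another library. Before the filters, any 2 libraries shared 26 to 4394 barcodes, with the most between the Tom- libraries. Leukocytes and stroma were found under both CD45 labels. Macrophage-like cells made up 14.4% to 15.4% of every library, and mesothelial-like cells made up 1.82% and 9.31% of the Tom+ and Tom- libraries with the CD45+ label. The pairs labelled CD45- and CD45+ are therefore named by their labels only. Progenitor-like cells were 6.90% and 5.60% of the Tom+ libraries against 41.9% and 39.2% of the Tom- libraries, while plasma cell-like cells were 21.3% and 22.1% against 1.03% and 1.30%.

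FGFs are secreted or matrix-bound proteins that bind receptor tyrosine kinases together with heparan sulfate chains, and the activated receptors signal mainly through the Ras and MAP kinase route, which switches on its own inhibitors. Fgf1 and Fgf2 lack a classical secretion signal, Fgf7 and Fgf10 are known as signals from mesenchyme to the epithelial splice form of Fgfr2, and Fgf18 is best known from bone, cartilage and lung. In adipose tissue Fgf1 is known as a factor needed for remodelling of the depot during high-fat feeding, and Fgf10 as a factor for the growth and differentiation of preadipocytes. The 3' counts used here do not separate splice forms of a receptor.

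The promoters of Fgf7 and Fgf10 are printed here because both ligands were found almost only in progenitor-like cells, as described below. Each is the stretch from 250 bases before to 50 bases after the gene's start in RefSeq (GRCm38.p6), 5′ to 3′ on the plus strand, with each match to CANNTG in capitals. CANNTG is the letter pattern of the E box, read by basic helix-loop-helix factors, and it reads the same on both strands. The first sequence lies at chr2:126034408-126034707 and the second at chr13:118714449-118714748.
Fgf7: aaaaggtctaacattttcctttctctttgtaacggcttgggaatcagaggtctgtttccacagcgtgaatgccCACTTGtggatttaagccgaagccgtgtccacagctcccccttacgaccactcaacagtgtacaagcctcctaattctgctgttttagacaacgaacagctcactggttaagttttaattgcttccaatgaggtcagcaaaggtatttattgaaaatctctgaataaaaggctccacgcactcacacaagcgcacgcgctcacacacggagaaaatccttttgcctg
Fgf10: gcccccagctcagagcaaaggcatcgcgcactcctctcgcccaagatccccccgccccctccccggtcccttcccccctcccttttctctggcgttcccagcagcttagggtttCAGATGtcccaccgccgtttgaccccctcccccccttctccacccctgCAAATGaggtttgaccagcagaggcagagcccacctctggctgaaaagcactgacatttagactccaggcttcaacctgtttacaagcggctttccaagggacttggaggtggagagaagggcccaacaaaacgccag
The Fgf7 window held 1 match (CACTTG) and the Fgf10 window 2 (CAGATG and CAAATG). Of the 32851 promoters of this length in the table, 72.3% held the pattern, with a median of 1 match. TATAAA, searched on both strands, was in neither window and in 13.6% of all.

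Levels are given as the UMIs of a gene per 1000000 UMIs of the cells named (CPM), with the exact Poisson 95% interval where one is printed. All intervals cover counting error only. Levels are compared between cell classes and libraries for 1 gene at a time. Between genes, CPM served only to choose which genes of the pathway list are named. Values for all 4 libraries follow the order given above, in which the Tom+ library of each pair comes first. B and T cell-like cells, which should lack most of these RNAs, served as the measure of free RNA, and shares of cells with a UMI were taken after thinning each cell to 2000 UMIs, because the median depth was 6361.5 UMIs in B and T cell-like, 22415 in progenitor-like and 30528 in mesothelial-like cells. The classes rest on clusters made without the FGF genes, so the levels below did not define the classes. The progenitor-like class had all 7 progenitor markers detected in each library, with a summed level of 29536 to 33743 CPM. The mesothelial-like class had all 7 mesothelial markers raised, and 6 of the 7 progenitor markers too in its main cluster.

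**Figure D1:**
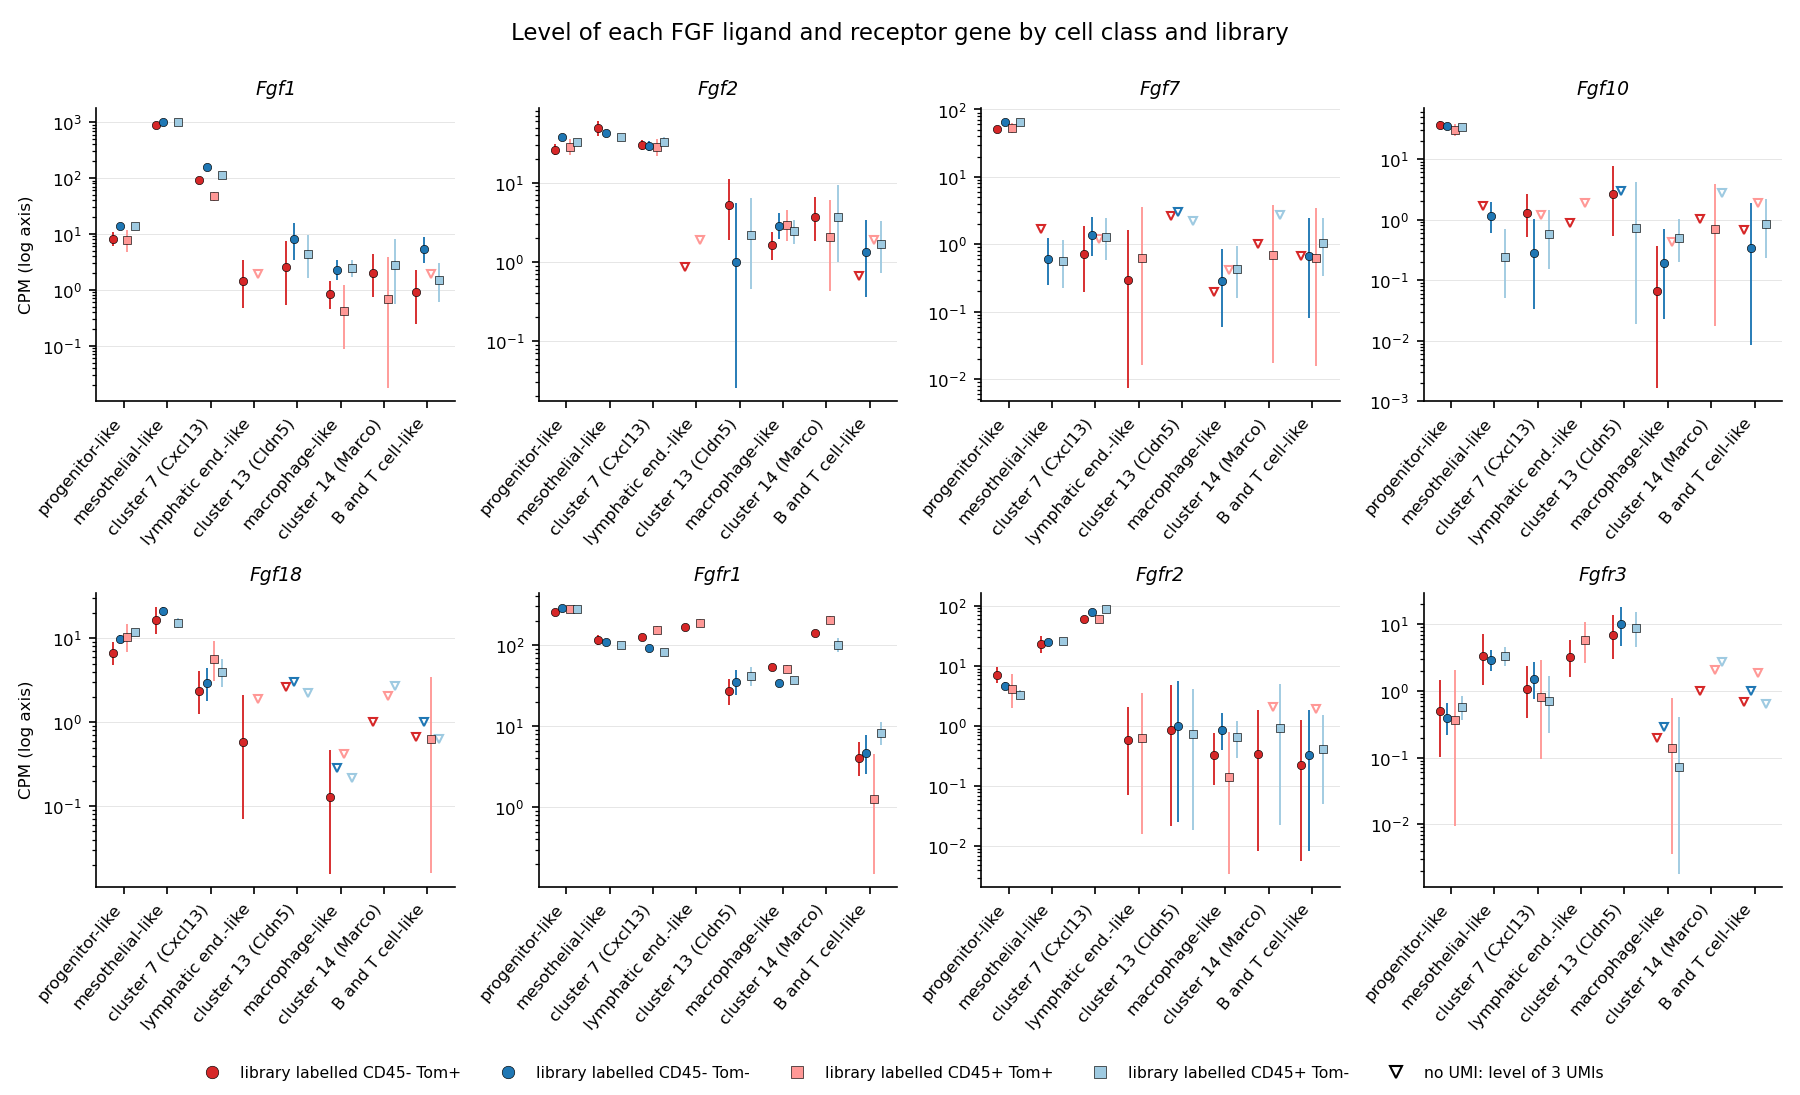
Level of each of the 8 genes in CPM on a log axis, by cell class and library, with exact Poisson 95% intervals as bars. Fgf1 stands highest in mesothelial-like cells, Fgf7 and Fgf10 in progenitor-like cells and Fgfr2 in cluster 7, in every library plotted there.

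Fgf1, which can bind all the FGF receptors, was mostly a mesothelial RNA among these stromal vascular cells; adipocytes were not measured. Its level in mesothelial-like cells, the lining of the fat pad, was 901 CPM (interval 858 to 946), 1020.2 CPM (1002 to 1039), 849 CPM in the 35 cells of the third library and 994 CPM (976 to 1012). After thinning, 73.1%, 75.1%, 80.0% and 81.7% of mesothelial-like cells had an Fgf1 UMI, against 0.475% of B and T cell-like cells over all libraries. Cluster 7, an unnamed stromal cluster led by Cxcl13 and Cxcl5 that carried markers of both progenitor and mesothelial cells, had 93.3, 155, 47.2 and 114 CPM of Fgf1. Progenitor-like cells had 8.06, 13.7, 7.75 and 13.9 CPM, and B and T cell-like cells had 1.96 CPM over all libraries. By library, Fgf1 ranged from 0 to 4.93 CPM in B cell-like and from 0 to 5.73 CPM in T cell-like cells. The part of free RNA in the progenitor-like levels of Fgf1 was not tested. The mesothelial-like class, 896 of the 13878 cells, held 86.6% of the 30794 Fgf1 UMIs. The ranges of mesothelial-like cells, cluster 7 and progenitor-like cells did not overlap between libraries.

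Fgf2, the basic FGF stored on matrix heparan sulfate, was shared among stromal classes. Mesothelial-like cells had 48.8, 42.8, 35.0 and 38.3 CPM, progenitor-like cells 26.3 (22.4 to 30.7), 38.3 (36.2 to 40.4), 28.4 and 32.8 CPM, and cluster 7 had 30.1, 29.3, 28.0 and 32.9 CPM. The levels of progenitor-like cells and cluster 7 overlapped, and so did the ranges of progenitor-like and mesothelial-like cells, although mesothelial-like cells were higher than progenitor-like cells within each of the 4 libraries. Progenitor-like cells, the most numerous of these classes, held 58.6% of the 5084 Fgf2 UMIs. B and T cell-like cells had 0.871 CPM.

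Fgf7, also called keratinocyte growth factor, was found almost only in progenitor-like cells. They had 51.7, 64.1, 53.5 and 64.4 CPM and held 95.7% of its UMIs, while mesothelial-like cells had 0.521 CPM and B and T cell-like cells 0.581 CPM over all libraries. The share held was 98.9% in each Tom- library and 73.9% and 65.0% in the Tom+ libraries. There, 19.8% and 26.5% of the Fgf7 UMIs lay in cluster 23, a cluster of cells with both progenitor and plasma cell RNA, whose level was 24.1 CPM in 71 cells and 43.6 CPM in 23 cells. These cells had a median depth of 57170 UMIs, and whether they are doublets was not tested beyond the doublet caller.

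Fgf10 had the same class pattern. Progenitor-like cells had 36.9 (32.2 to 42.0), 35.5 (33.6 to 37.5), 30.3 (24.1 to 37.6) and 34.2 (32.5 to 36.0) CPM, which is 4 overlapping intervals. They held 95.9% of the UMIs, against 0.595 CPM in mesothelial-like and 0.363 CPM in B and T cell-like cells. In the Tom+ libraries cluster 23 held 10.9% and 32.0% of the Fgf10 UMIs.

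Fgf18 was low throughout. Mesothelial-like cells had 16.6, 21.0, 24.9 (35 cells) and 15.2 CPM, progenitor-like cells 6.75, 9.83, 10.3 and 12.0 CPM, and cluster 7 had 2.35, 2.92, 5.60 and 3.97 CPM. B and T cell-like cells had 1 UMI, or 0.0726 CPM. The 3 stromal classes kept this order in every library, and 60.7% of the UMIs lay in progenitor-like cells.

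Fgfr1, the main mesenchymal FGF receptor, was the widest of the 8 genes, and its Poisson interval lay above that of B and T cell-like cells (5.30 CPM) in 14 of 20 classes. Progenitor-like cells led with 257 (245 to 270), 284 (279 to 290), 277 (258 to 298) and 281 (276 to 286) CPM, and held 68.6% of its UMIs. After thinning, 40.8%, 42.2%, 38.0% and 41.7% of them had a UMI, against 1.16% of B and T cell-like cells. Lymphatic endothelial-like cells, which were present almost only in the Tom+ libraries, had 168 and 188 CPM. Mesothelial-like cells had 116, 108, 82.4 (35 cells) and 101 CPM, and cluster 7 had 127, 93.0, 154 and 82.9 CPM, so these neighbours overlapped. Macrophage-like cells had 52.9, 33.6, 51.2 and 37.4 CPM. Cluster 14, which is led by the macrophage scavenger genes Marco and Vsig4, had 139 CPM and 205 CPM in the Tom+ libraries against 157 (41 cells) and 100.2 CPM in the Tom- libraries.

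Fgfr2, the receptor for Fgf7 and Fgf10 in its epithelial splice form, was highest in cluster 7 among classes with at least 50 cells in all 4 libraries. Cluster 7 had 58.9, 76.9, 60.0 and 88.8 CPM, mesothelial-like cells 22.7, 25.2, 25.7 (35 cells) and 25.4 CPM, and progenitor-like cells 7.08, 4.58, 4.06 and 3.30 CPM. Cluster 7 held 58.8% and mesothelial-like cells 24.0% of the UMIs. B and T cell-like cells had 0.290 CPM. Fgf7 and Fgf10 were thus highest in progenitor-like cells, where Fgfr2 was 3.30 to 7.08 CPM, and Fgfr2 was highest in cluster 7, where Fgf7 and Fgf10 averaged 0.848 and 0.528 CPM over the libraries.

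Fgfr3, a receptor known from cartilage and some endothelia, was near the limit of detection, with 53, 71, 40 and 84 UMIs per library and 248 in all. Cluster 13, which is led by Cldn5 and Rgs5 and carries blood endothelial and pericyte markers, had 6.94, 10.00, 11.3 (42 cells) and 8.88 CPM. Cluster 25, a small cluster led by Cxcl13 with mast and plasma cell RNA, had 12.6 CPM (5.43 to 24.8) in 53 cells of the library labelled CD45+ Tom+, on 8 UMIs that lay in 2 of these cells. Mesothelial-like cells held 82 of the 248 UMIs (33.1%), at 3.05 CPM over all libraries. Lymphatic endothelial-like cells had 3.20 CPM in the library labelled CD45- Tom+ and 5.73 CPM in the library labelled CD45+ Tom+. Progenitor-like cells had 3, 14, 1 and 24 UMIs, and B and T cell-like cells had 0, which allows up to 0.268 CPM.

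**Figure D2:**
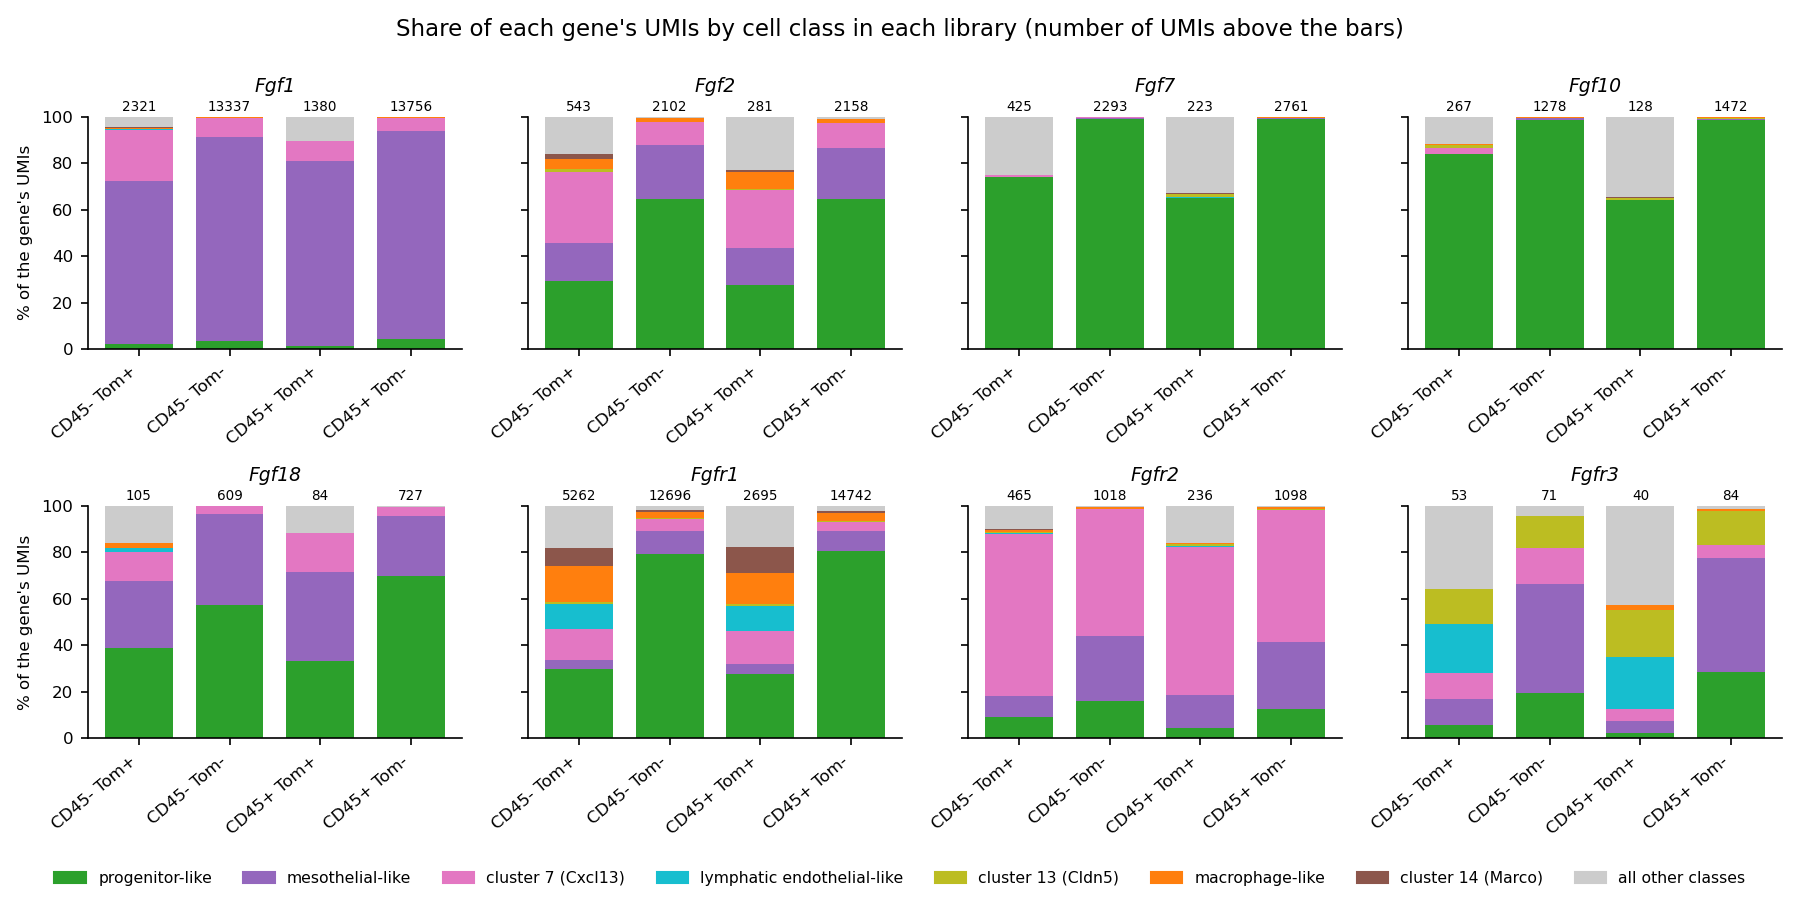
Share in percent of each gene's UMIs that fell in each cell class, by library. Fgf1 UMIs fell mostly in mesothelial-like cells (70.1% to 89.3% by library), Fgf7 and Fgf10 UMIs in progenitor-like cells.

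Set against B and T cell-like cells, Fgf7 was higher in 3 and Fgf10 in 2 of the 20 classes, Fgf1 and Fgf18 in 5, Fgfr2 in 6, Fgfr3 in 8 and Fgf2 in 9, counting classes whose Poisson interval lay wholly above. The ligands Fgf7 and Fgf10 thus had few source classes, whereas Fgfr1 had many receiver classes. RNA levels do not measure secreted ligand or receptor protein.

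Within progenitor-like cells the ligands divided by subset. The interstitial-like subset is named from Dpp4 and Pi16, known markers of early progenitors, and the committed preadipocyte-like subset from Enpp6 and Mrap. The other sub-clusters are given by number. Subset levels are given first for the Tom- libraries, CD45- and then CD45+, because the interstitial-like subset had 27 and 6 cells and the committed-like subset 49 and 15 cells in the Tom+ libraries.

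Fgf2 was highest in the interstitial-like subset, at 106.5 (96.8 to 117) and 104.3 (95.3 to 114) CPM, against 17.4 and 17.8 CPM in the committed-like subset. The 27 interstitial-like cells of the library labelled CD45- Tom+ had 78.8 CPM. The numbered sub-clusters 0, 1 and 3 lay between, at 25.8 and 19.4, at 39.5 and 31.8, and at 32.4 and 23.0 CPM. Fgf1 and Fgf18 had the same leading subset, with 31.2 and 34.8 CPM of Fgf1 and 28.5 and 31.4 CPM of Fgf18 in interstitial-like cells, against 11.3 and 13.9 CPM and 6.83 and 9.47 CPM in committed-like cells.

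Fgf10 showed the opposite order. Committed-like cells had 126.7 (118 to 136) and 121.3 (114 to 129) CPM, and interstitial-like cells 0.975 and 1.5 CPM, near the 0.363 CPM of B and T cell-like cells. The 49 committed-like cells of the library labelled CD45- Tom+ had 100.5 CPM. Sub-clusters 0, 1 and 3 had 11.2 to 17.2 CPM.

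Fgf7 was lowest in the interstitial-like subset, at 22.4 and 21.0 CPM, and reached 81.5 and 81.0 CPM in sub-cluster 0 and 76.8 and 75.2 CPM in sub-cluster 1, whose values lay close together. Committed-like cells had 64.0 and 68.0 CPM and sub-cluster 3 had 45.8 and 48.0 CPM. Fgfr1 varied less, from 222 CPM in committed-like to 356 CPM in interstitial-like cells, with 238 and 222 CPM in the former and 356 and 352 CPM in the latter. Fgfr2 was highest in sub-cluster 1, at 7.20 and 5.25 CPM. At sub-clustering resolution 1 its highest level was 9.46 CPM, in 385 progenitor-like cells named from Cxcl13 and other stromal markers.

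**Figure D3:**
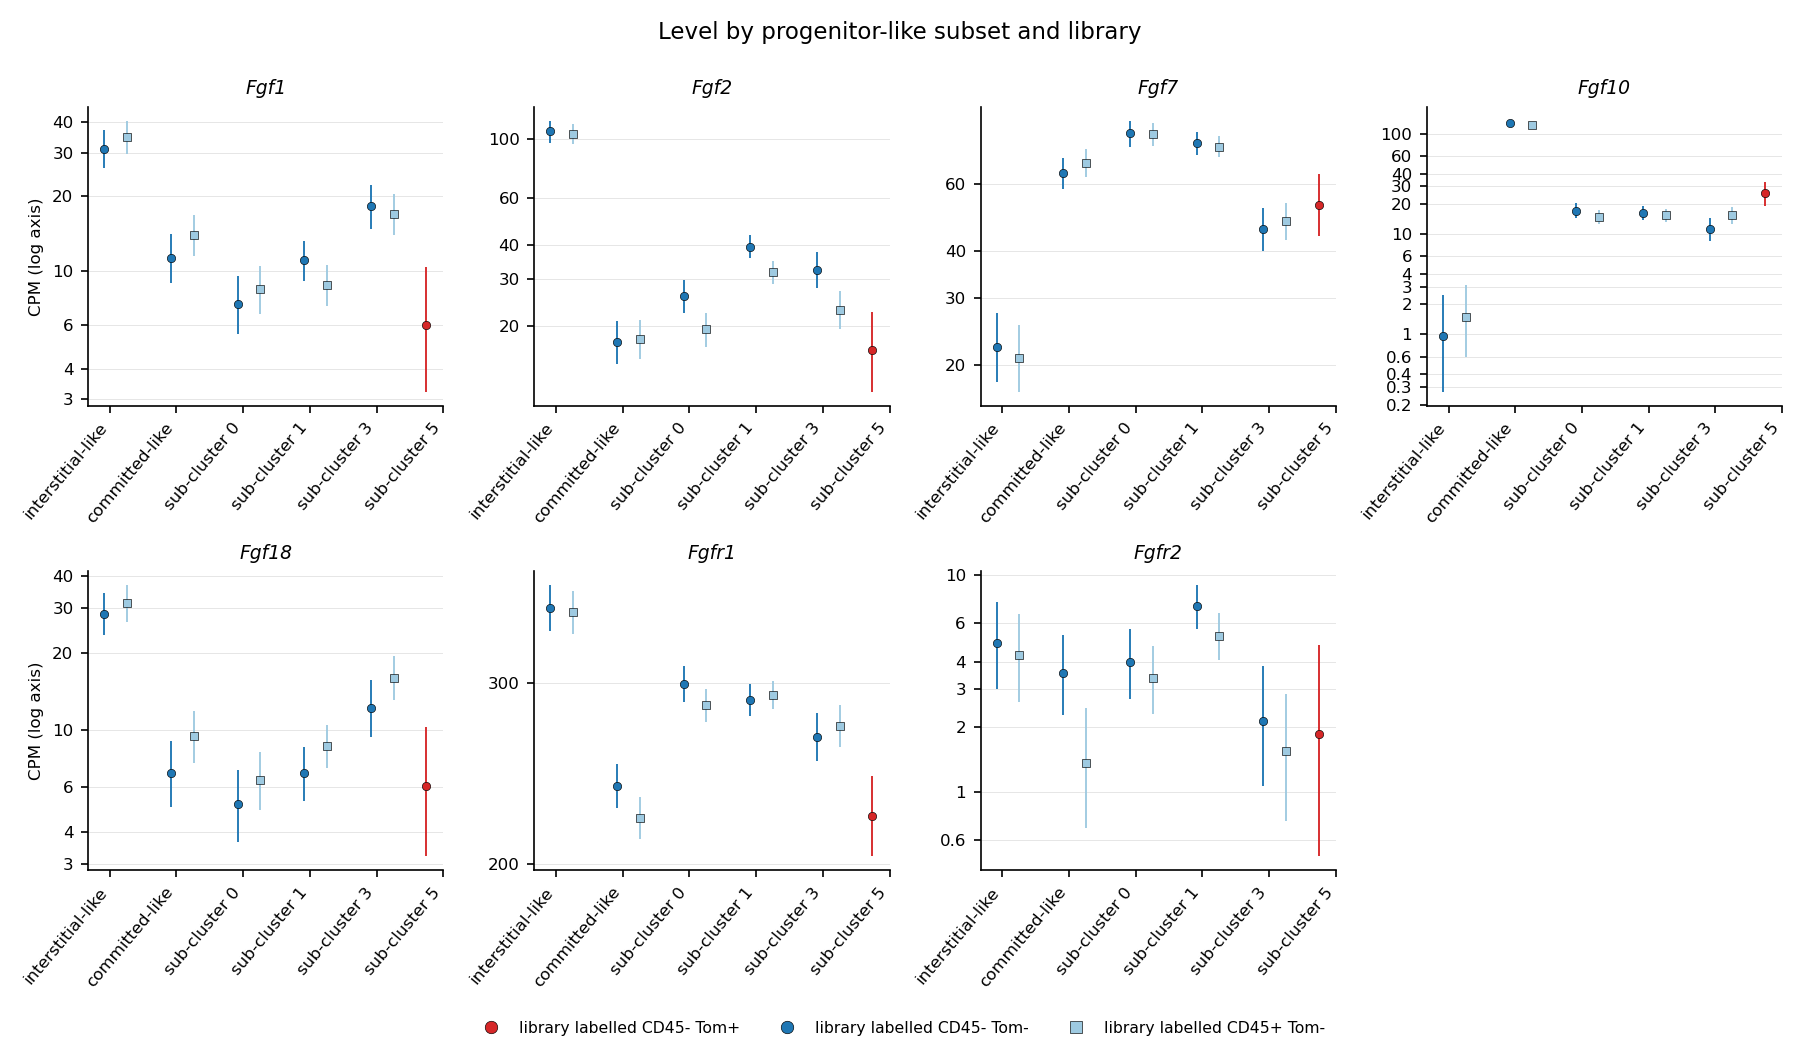
Level in CPM on a log axis of 7 genes in subsets of progenitor-like cells, for each subset and library with at least 50 cells, with exact Poisson 95% intervals; Fgfr3 had too few UMIs. Fgf2, Fgf1 and Fgf18 stand highest in interstitial-like cells, where Fgf10 is lowest, and Fgf10 stands highest in committed-like cells.

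Fgf2 and Fgf10 were also compared per cell. After thinning, 1 of 1538 and 1 of 1717 progenitor-like cells of the Tom- libraries had a UMI of both, a share of 0.0650% and 0.0582%, where the product of the single shares was 0.367% and 0.248%. Fgf7 and Fgf10 were found together in 9 and 16 cells, at 0.585% and 0.932% against products of 0.555% and 0.628%. Fgf10 and Fgfr1 were found together in 36 and 30 cells, 2.34% and 1.75%, with products of 2.25% and 2.02%. In the library labelled CD45- Tom+, 1 of 267 cells had both Fgf2 and Fgf10, 0.375% against a product of 0.231%. In the library labelled CD45+ Tom+ it was 0 of 108 cells. Cells of 1 library are not replicates, and at 2000 UMIs most expressing cells show no UMI of these genes.

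Taking all cells, every gene was lower in the Tom+ than in the Tom- library of each pair, along with the smaller share of stromal cells. As log2 of Tom+ over Tom-, first for the CD45- and then for the CD45+ labels, the ratio was -2.88 and -2.38 for Fgf1, -2.31 and -2.0 for Fgf2, -2.78 and -2.69 for Fgf7, -2.61 and -2.58 for Fgf10 and -2.89 and -2.17 for Fgf18. Among the receptors it was -1.62 and -1.51 for Fgfr1, -1.48 and -1.28 for Fgfr2, and -0.78 and -0.13 for Fgfr3. The ratios within a class, below, are taken per UMI of that class.

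In progenitor-like cells most ratios were small. Fgf1 was lower in the Tom+ library of both pairs, at a log2 ratio of -0.76 (interval -1.21 to -0.33) and -0.84 (-1.55 to -0.22), on 21 UMIs of the library labelled CD45+ Tom+. On cells thinned to 2000 UMIs the second of these was 0.084, so its direction was not stable at that depth. The mix of subsets differed between the groups compared. The interstitial-like subset, highest for Fgf1, was 10.1% and 5.56% of progenitor-like cells in the Tom+ libraries against 10.9% and 10.2% in the Tom- libraries, and sub-cluster 0 was 4.85% and 13.9% against 29.8% and 30.3%. With 1 mix of sub-clusters in both libraries of a pair, a setting added after the data were seen, Fgf1 was -1.10 and -0.72. Fgf2 was -0.54 (-0.78 to -0.30) and -0.21, Fgf18 -0.54 (-1.05 to -0.07) and -0.21, and Fgf7 -0.31 and -0.27. Fgf10 was 0.05 (-0.16 to 0.26) and -0.18 (-0.52 to 0.14), and Fgfr1 was -0.14 (-0.22 to -0.07) and -0.02 (-0.13 to 0.09).

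A gene was counted as past the fold where the log2 ratio was at least 0.5 in size, leaving out genes that averaged under 5 CPM over the pair. In the pair labelled CD45-, 4 of the 7 FGF genes kept were past it, Fgf1, Fgf2 and Fgf18 lower and Fgfr2 higher in Tom+, where 5.24% of all 9920 genes were (3.00% higher and 2.24% lower). In the pair labelled CD45+, 1 of the 6 kept was past it (Fgf1, lower), where 9.45% of all genes were (5.12% lower). Fgf1 was the 1 gene of the 8 past the fold in the same direction in both pairs, where 0.516% of all 9684 genes kept in both were lower and 1.13% higher. The median of the FGF genes kept was -0.31 and -0.21, beside -0.03 and -0.04 over all genes.

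Fgfr2 had a ratio of 0.63 (0.11 to 1.12) under the CD45- labels, which rests on 43 UMIs in 20 cells, and 53.5% of these UMIs lay in the 2% of cells with the most. In the other pair Fgfr2 was under the minimum level, at 0.30.

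RNA of other cell types moved with the Tom+ label in progenitor-like cells. The 5 plasma cell markers summed to 1703, 103, 2546 and 96.9 CPM in the 4 libraries, the 6 macrophage markers to 214, 49.5, 65.3 and 43.8 CPM and the 5 mast cell markers to 67.5, 23.9, 55.3 and 15.2 CPM, with every plasma cell and macrophage marker detected in each library. Sub-cluster 5 held 118 of the 268 progenitor-like cells of the library labelled CD45- Tom+ (44.0%) and 7 of 1541 in its Tom- partner, and its plasma cell markers summed to 2512 CPM there. The 7 mesothelial markers summed to 173, 185, 184 and 184 CPM, and the part of mesothelial RNA in the Fgf1 ratios was not tested. Fgf1 itself was also lower in the Tom+ libraries in macrophage-like cells, whose clusters are described below. It was 0.695, 3.09, 0.490 and 2.88 CPM in cluster 2, on 3, 20, 1 and 24 UMIs. In cluster 3 it was 0.906, 1.02, 0.393 and 1.81 CPM, on 10, 4, 2 and 10 UMIs. In progenitor-like cells without sub-cluster 5, a setting added after the data were seen, the Fgf1 ratios were -0.58 and -0.61, Fgf2 -0.27 and -0.03, Fgf7 -0.33 and -0.11, Fgf10 0.27 and -0.09, Fgf18 -0.47 and -0.06, and Fgfr1 -0.05 and 0.01. Fgfr2 was 1.11 (0.57 to 1.63) on 39 Tom+ UMIs in the pair labelled CD45-. In the other pair it was 0.67 on 11 Tom+ UMIs, under the minimum level. Then 2 genes (Fgf1 lower, Fgfr2 higher) and 1 gene were past the fold, where 6.75% and 11.3% of all genes were. Plasma cell markers still summed to 1259 CPM in the library labelled CD45- Tom+ against 102 CPM, and the part of other cells' RNA in these ratios was not tested.

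The label itself was visible as tdTomato RNA, at 637, 9.35, 623 and 10.8 CPM in progenitor-like cells. Cdkn2a, the gene behind p16, had 3.62, 5.82, 6.27 and 6.41 CPM there and was not higher in the Tom+ libraries. It was higher in the Tom+ library of both pairs in mesothelial-like cells and macrophage-like cluster 2, on few UMIs. Mesothelial-like cells had 3.88, 1.57, 6.99 and 1.21 CPM, on 7, 18, 9 and 15 UMIs. Cluster 2 had 6.49, 2.62, 2.45 and 1.20 CPM, on 28, 17, 5 and 10 UMIs. For sorted progenitor cells of old mice, the paper reports higher p16 RNA in Tom+ than in Tom- cells by PCR.

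**Figure D4:**
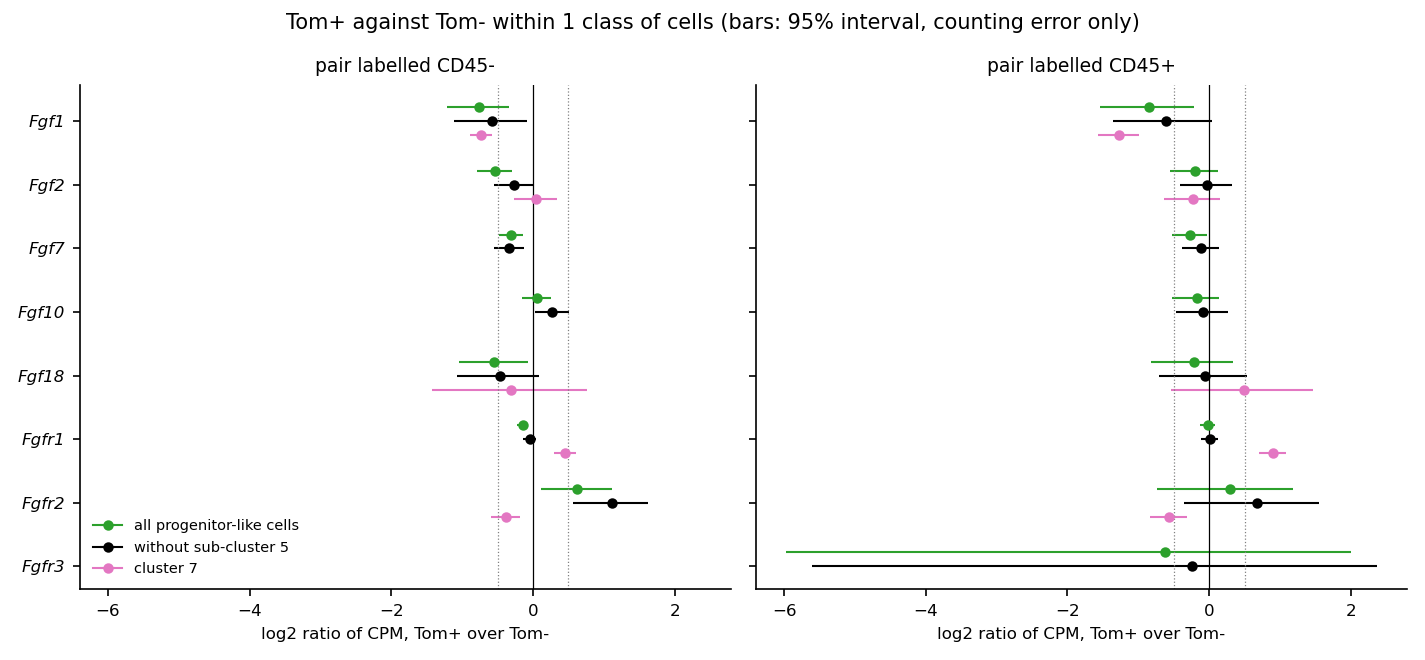
Log2 ratio of Tom+ to Tom- for the FGF genes by cell class and pair of libraries, with exact conditional 95% intervals that cover counting error only. Fgf1 lies below 0 in progenitor-like cells and in cluster 7 in both pairs, while Fgfr1 lies above 0 in cluster 7 in both pairs.

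Cluster 7 showed larger ratios for several members. Fgf1 was lower in Tom+, at -0.73 (-0.88 to -0.58) and -1.28 (-1.57 to -1.0), and Fgfr2 was lower, at -0.39 (-0.59 to -0.19) and -0.57 (-0.83 to -0.31). Fgfr1 was higher, at 0.45 (0.30 to 0.61) and 0.90 (0.71 to 1.09), and Fgf2 was 0.04 and -0.23. Of the 4 FGF genes kept, 1 and 3 were past the fold, where 9.94% and 17.7% of all genes were. Mesothelial markers in cluster 7 summed to 1077, 1156, 1012 and 912 CPM, progenitor markers to 19523, 16735, 21766 and 18301 CPM and plasma cell markers to 1385, 76.1, 1226 and 69.8 CPM. Cdkn2a was 37.1, 27.6, 42.4 and 40.4 CPM in this cluster. Whether the markers' shifts account for the ratios was not tested.

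In mesothelial-like cells of the pair labelled CD45-, Fgf1 was -0.18 (-0.26 to -0.10), Fgf2 0.19, Fgf18 -0.34, Fgfr1 0.10 and Fgfr2 -0.15. None of the 5 genes kept was past the fold, where 11.5% of all genes were. The other pair had 35 Tom+ cells and its ratios were not used, with Fgf1 at -0.23.

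Fgfr1 in macrophage-like cells was higher in the Tom+ libraries, at a log2 ratio of 0.66 (0.47 to 0.84) and 0.45 (0.25 to 0.65), with 3.81% and 3.75% of all genes past the fold in the higher direction. The class held a different mix of clusters in the groups compared, since cluster 2 was 34.0% and 37.7% of it in the Tom+ libraries and 69.3% and 67.9% in the Tom- libraries and cluster 3 was the rest. The clusters were looked at separately after these values were seen. Of all genes, 4.57% and 4.64% were past the fold in the higher direction in cluster 2, and 1.63% in both pairs. In this cluster, led by Arg1 and Cd5l, Fgfr1 was 86.5 against 34.7 CPM and 94.1 against 44.5 CPM, ratios of 1.32 (1.07 to 1.56) and 1.08 (0.82 to 1.34). Fgf2 was 5.33 against 3.86 CPM and 8.82 against 3.96 CPM there, on 23, 25, 18 and 33 UMIs. It was past the fold in the pair labelled CD45+ and under the minimum level in the other. In cluster 3, led by Ms4a7 and Gpnmb, Fgfr1 was 39.8 against 31.7 CPM and 34.0 against 26.8 CPM, ratios of 0.33 and 0.34. In cluster 14 the pairs pointed opposite ways, at -0.17 (-0.49 to 0.16, with 41 Tom- cells) for the CD45- labels and 1.03 (0.71 to 1.36) for the CD45+ labels.

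Progenitor markers, whose cells have the most Fgfr1, summed to 93.6, 332, 90.2 and 337 CPM in cluster 2 and so were lower in the Tom+ libraries. Plasma cell markers summed to 1643, 133, 1623 and 111 CPM, mast cell markers to 93.9, 30.4, 82.8 and 19.5 CPM and lymphatic endothelial markers to 33.8, 11.7, 22.1 and 14.1 CPM, all higher in Tom+. The part of these in the Fgfr1 ratio was not tested.

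The rest of the pathway was taken from a list of 73 genes by role, all in the matrices, of which 47 were kept in both pairs in progenitor-like cells. None was past the fold in the same direction in both pairs, where 1.13% of all 9684 genes were higher and 0.516% lower in both. The list's median log2 ratio was -0.10 and -0.05, beside -0.03 and -0.05 over all these genes. By pair, 1 gene was higher and 1 lower in the pair labelled CD45-, where 3.00% and 2.24% of all genes were, and 2 were higher and 2 lower in the other, where 4.32% and 5.12% were, so these counts were near the shares of all genes.

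**Figure D5:**
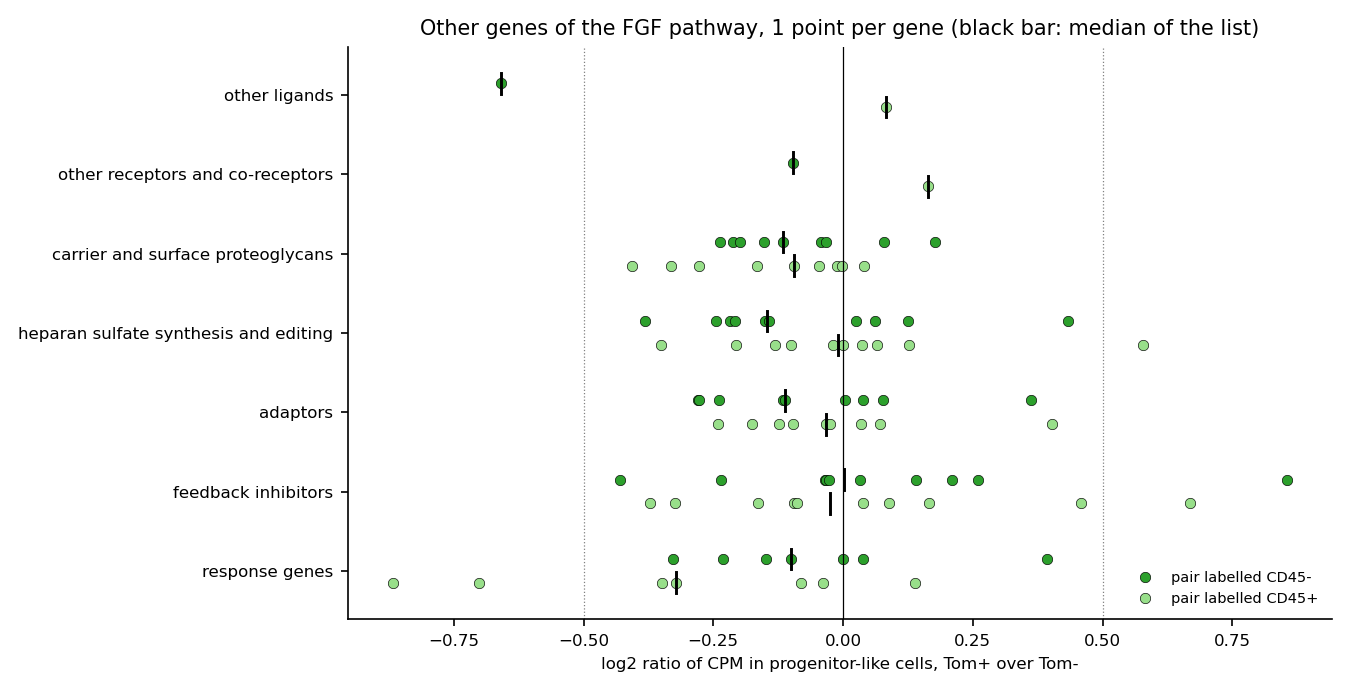
Log2 ratio of Tom+ to Tom- in progenitor-like cells for the pathway genes kept, grouped by role, in both pairs of libraries. No gene lies past 0.5 in the same direction in both pairs.

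Among the other 17 ligands, 1 was kept, Fgf11, an intracellular FGF homologous factor that is not a receptor ligand, with -0.66 in the pair labelled CD45- and 0.08 in the other. Fgf9, known as a signal of mesothelium to mesenchyme in the developing lung, had 42.8 CPM in mesothelial-like against 3.21 CPM in progenitor-like cells over all libraries. Fgf16 had 4.05 and 0.970 CPM in these classes, and Fgf21, the endocrine FGF, 0.335 and 0.982 CPM. Among other receptors, Fgfrl1, which lacks the kinase domain, had 32.5 CPM in progenitor-like cells, Fgfr4 had 0.0577 CPM and Kl 0.0346 CPM, and the FGF21 co-receptor Klb had no UMI there.

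Among heparan sulfate carriers in progenitor-like cells, Hspg2 (perlecan) had 501 CPM, Sdc4 262 CPM, Sdc2 208 CPM and Gpc3 187 CPM. Sdc4 had 2105 CPM in mesothelial-like cells and 1510 CPM in cluster 7. Hspg2 was lower in Tom+ progenitor-like cells by ratios of -0.24 and -0.41, within the fold. Of the genes that build or edit the chains, the rule named Ext1 (154 CPM), Sulf2 (136 CPM), Ext2 (88.6 CPM) and Sulf1 (84.6 CPM), and the sulfatases Sulf1 and Sulf2 had 272 and 266 CPM in mesothelial-like cells. The 9 carriers kept had a median ratio of -0.12 and -0.09, and the 10 synthesis and editing genes -0.15 and -0.01.

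Of the adaptors and receptor partners, Flrt2 had 136 CPM in progenitor-like, 576 CPM in mesothelial-like cells and 522 CPM in cluster 7, and Shc1, Ptpn11 and Grb2 had 59.8 to 96.6 CPM in progenitor-like cells. The feedback inhibitors of the receptor route named by the rule were Spry2 (180.0 CPM), Spred1 (134 CPM), Spry1 (114 CPM) and Dusp6 (51.3 CPM). Spry1 had 2.31 CPM in mesothelial-like cells and 1.30 CPM in cluster 7, while Dusp6, a phosphatase for ERK, had 256 CPM and 102 CPM there. Dusp6 was 77.5 against 48.7 CPM in the pair labelled CD45+, a ratio of 0.67, and 0.21 in the other pair. Dusp5, another such phosphatase, named after its values were seen, was 24.2 against 13.4 CPM in the pair labelled CD45-, a ratio of 0.86, and 0.46 in the other.

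The response genes named were Egr1 (4518 CPM) and Ier2 (1099 CPM), both also known to respond to tissue digestion, and Myc (98.2 CPM) and Etv1 (24.3 CPM). Egr1 was 0.00 and 0.14 and Etv1 was -0.33 and -0.35. The remaining genes past the fold in 1 pair, named after their values were seen, were Hs6st2 (0.58), Ccnd1 (-0.87, with 0.39 in the pair labelled CD45-) and Fosl1 (-0.70), each in the pair labelled CD45+.

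Genes with the most similar pattern were ranked by Pearson's r of log2(CPM + 1) across 52 groups of 1 class in 1 library, which cover 20 classes and share libraries and cell numbers. Among 10490 genes, Lgals7 and Nkain4 (both r = 0.94), Flrt1, Myrf and Tmem151a were most like Fgf1, and Rpp25 (r = 0.95), Sntg1, Nkain4, Capn6 and Ptprd most like Fgfr2. Ror1 (r = 0.93), Ror2, Slc4a4 and Hoxc8 were most like Fgf2, and Dapk1 (r = 0.89), Fam102b, Lima1 and Ube2e2 most like Fgfr1. Fbln7 came first for both Fgf7 (r = 0.92) and Fgf10 (r = 0.91), and Tcf21, a basic helix-loop-helix factor, was among the 5 of each. Dpep1, Inmt and C1qtnf7 completed the list of Fgf7, and Pla1a, Ntrk2 and Hmcn2 that of Fgf10. Fgf18 was followed by Naaladl2 (r = 0.96), Podn, Sfrp2, Fmod and Vit, and Fgfr3 by Adgrf5 (r = 0.89), Lama5, Podxl, Esam and Tspan7. Fgf10, Fgf18 and Fgfr3 averaged under 5 CPM over the groups. These values describe the pattern over classes and were not tested.

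In the mm10 annotation (GENCODE vM21) Fgf7 lies at chr2:126034658-126091185 and Fgf10 at chr13:118669791-118792115, both on the plus strand, so the RefSeq start used for the Fgf10 promoter lies inside the longer GENCODE gene. Fgf2 (chr3:37348346-37410108), Fgfr1 (chr8:25513654-25575718) and Fgfr3 (chr5:33721674-33737068) lie on the plus strand, and Fgf18 (chr11:33117430-33147400) and Fgfr2 (chr7:130162451-133123350) on the minus strand. Fgf2 overlaps the opposite-strand genes Nudt6 and Fgf2os, Fgf7 overlaps Fam227b, and Fgf10 and Fgfr1 overlap opposite-strand predicted genes. The annotated span of Fgfr2 takes in 21 genes on its own strand, so how reads were shared among them is uncertain.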

How the data were processed

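Cells of the stromal vascular fraction were loaded on 10x Chromium (3' v3.1) in 4 libraries. The authors deposited raw UMI counts per gene and barcode, made with Cell Ranger 3.0.2 on mm10 with a tdTomato row (per the labels and the submitters' processing notes). The labels' extraction text names 1 sort gate in place of CD45+ Tom-, and titles were followed. Cells with more than 1000 and under 7000 genes and under 8% mitochondrial UMIs were kept, as in the study's methods, and the top 0.8% of Scrublet scores per 1000 barcodes (scanpy 1.11.5) removed 259, 364, 54 and 427 cells. Cells were clustered (2000 variable genes without FGF pathway genes and tdTomato, 30 components, 15 neighbours, Leiden resolution 1, leidenalg 0.10.2, no batch correction) into 30 clusters, of which 22 were named, into 13 classes. A name required 3 markers at 20 CPM or more and 4 times the median cluster. These thresholds were set after the data were seen. The study's own Wilcoxon test over cells was not used, since cells are not replicates. UMIs were summed per class and library and ratios given with exact conditional 95% intervals (scipy 1.17.1), for classes of at least 50 cells per library.

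Named genes were the 8 FGF genes, the 4 highest of each pathway role in progenitor-like cells with any past the fold in both pairs, and the 5 most similar genes per member, of which some are not reported here. The members and lists were chosen with earlier results of these data known. The ratio step was tested on simulated data. Alternatives were other cell filters, doublets kept, other clustering, thinning, no minimum level, a log2 threshold of 1 and shared barcodes left out.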

Additional observations from a re-analysis of the deposited data

How the results depend on the processing

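The progenitor-like class led for 3 of the 8 genes under all settings run. In progenitor-like cells the 4 genes past the fold in the pair labelled CD45- became 2 with marked doublets kept, with a looser filter (500 genes or more, mitochondrial share below 20%), with the mean CPM of single cells, with 1 mix of progenitor-like clusters and without sub-cluster 5, and 0 at a log2 threshold of 1. The 1 gene in the pair labelled CD45+ became 3 on thinned cells, 2 with no minimum CPM and 2 with 1 mix of sub-clusters, where 42.8%, 45.2% and 13.7% of all genes were past the fold, and 0 at a threshold of 1. The 0 pathway genes past the fold in both pairs (1.64% of all genes, either direction) became 1 with doublets kept, with the looser cell filter and with 1 mix of clusters, where 1.50%, 1.63% and 1.51% of all genes were. They became 2 of 47 without sub-cluster 5, 4 of 46 on thinned cells and 10 of 63 with no minimum CPM, where 1.76%, 8.57% and 17.7% of all genes were. Fgf1 in the pair labelled CD45+ changed from -0.84 to 0.084 on thinned cells. The settings without sub-cluster 5 and with 1 mix of sub-clusters were chosen after seeing the data, and the cause of these changes was not tested. Over the values of single genes and all settings, 308 stayed, 53 moved and 1 changed sign, apart from Fgfr2 and Fgfr3 ratios with no UMI left in a Tom+ library, which gave no value.

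The mean Fgf1 level in mesothelial-like cells was 658 CPM at resolution 2 and 677 CPM with the looser filter, against 972 CPM. The Fgfr1 ratio in macrophage-like cells was 0.35 at resolution 0.5 (pair labelled CD45-) and 0.88 and 0.84 (pair labelled CD45+) with 4000 variable genes and with doublets kept. Fgf10 in committed-like cells was 175 CPM in 300 cells at sub-clustering resolution 1, against 124 CPM in 549. Fgfr3 had 248 UMIs in all, so its levels rest on few counts. No analysis paired by replicate was possible because each group has 1 library, with no replicate numbers to pair. A fit of the Tom label with the CD45 label as a block was not run. With 1 library per group, no replicate could be left out.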
